A study of Mus musculus with 12 samples.

Results

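The 10 smooth muscle contractile genes Acta2, Actg2, Tagln, Myh11, Cnn1, Smtn, Lmod1, Myl9, Mylk and Myocd were followed in whole mouse lung. They were taken by gene name from a table of 47069 genes, and all 10 were present and passed the filter on low counts that left 17843 genes for testing. The data are RNA-seq gene counts of whole lungs of strain C57BL/6 at embryonic day 15.5, from 3 wild-type lungs (WT) and 3 lungs of a conditional knockout (CKO), each sequenced in 2 runs whose counts were summed. The CKO lungs had the labelled genotype Tgfbr2lox/flox/Tbx4-rtTA/Teto-Cre in replicates 1 and 2 and Tgfbr2flox/flox/Tbx4-rtTA/Teto-Cre in replicate 3. In this system the Tbx4 element drives rtTA, a doxycycline-dependent activator, in lung mesenchyme, and rtTA switches on Cre, which removes the floxed part of Tgfbr2, which encodes a receptor that transforming growth factor beta (TGF-beta) needs to signal. The WT lungs are labelled as wild type with no further allele named, and doxycycline in food and in drinking water at 1 mg/ml from embryonic day 6.5 is given in the labels for all lungs. The labels do not say which lungs came from 1 litter, so the p-values reflect how far these lungs spread and no more.

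Smooth muscle cells contract when myosin filaments, built from smooth muscle myosin heavy chain and its light chains, pull on filaments of smooth muscle actin. Myosin light chain kinase starts the pull by phosphorylating the regulatory light chain, and calponin, transgelin and smoothelin bind the actin filaments. Most of these genes are switched on by serum response factor (SRF), which binds a DNA element called the CArG box, together with its cofactor myocardin. In the fetal lung, smooth muscle forms around the growing airways and vessels, and TGF-beta is a known inducer of contractile genes in cultured mesenchymal cells.

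Gene counts summed to 31983717 to 51572845 per lung in WT and 36741615 to 41680516 in CKO lungs. Values are CPM (counts scaled to the effective library size), given as mean ± SD with n = 3 lungs, and the test is edgeR's quasi-likelihood test with Benjamini-Hochberg adjustment over all 17843 genes, where a gene is called at an adjusted p under 0.05. Replicate 1 of both groups had Xist counts of 61807 and 100817 and at most 2 counts of 4 Y-linked genes, while the other lungs had 22 to 41 Xist counts and 10429 to 13984 Y-linked counts. Reads outside annotated features made up 14.5% to 16.1% of uniquely mapped reads in WT lungs, 17.0% in CKO replicate 1, and 11.8% and 12.8% in CKO replicates 2 and 3. Tgfbr2 itself had 211 ± 16.7 CPM in the WT against 225 ± 13.1 CPM in the CKO lungs (adjusted p = 0.453), a count over the whole gene and all lung cells that checks nothing about the deletion. In whole lungs, fewer smooth muscle cells and less RNA per cell cannot be told apart.

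Of the 10 contractile genes, 5 fell in the CKO lungs (Acta2, Myh11, Myl9, Mylk and Myocd) and none was called higher. Over all tested genes 3.08% were called lower, 5.64% higher and 8.71% either way. The set was chosen with earlier results of these data known, so its count is a description. The other 5 genes were Actg2, Tagln, Cnn1, Lmod1 and Smtn. The first 4 of these had lower levels in every CKO lung than in any WT lung, with log2 fold changes of -1.05 to -1.83, but did not pass (edgeR adjusted p = 0.0633 to 0.151). For 9 of the 10 genes the groups did not overlap with the CKO lungs lower, where 14.4% of all tested genes did so and 29.9% had separate groups in either direction. The median log2 fold change of the 10 genes was -1.06, against -0.0046 over all tested genes. None of the 10 genes was higher at an unadjusted p under 0.05, and DESeq2 and limma-voom also called 0 of them higher. DESeq2 called 6 lower, where 984 of 30341 genes with counts were, and limma-voom 9, where 628 of 17843 were. In each of the 3 tools 9 were lower at an unadjusted p under 0.05. The share of all genes under that unadjusted p was not counted. Summed over the 10 genes, the level was 1863, 1975 and 1944 CPM in the WT lungs (replicates 1 to 3) against 1404, 964 and 1002 CPM in the CKO lungs.

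**Figure D1:**
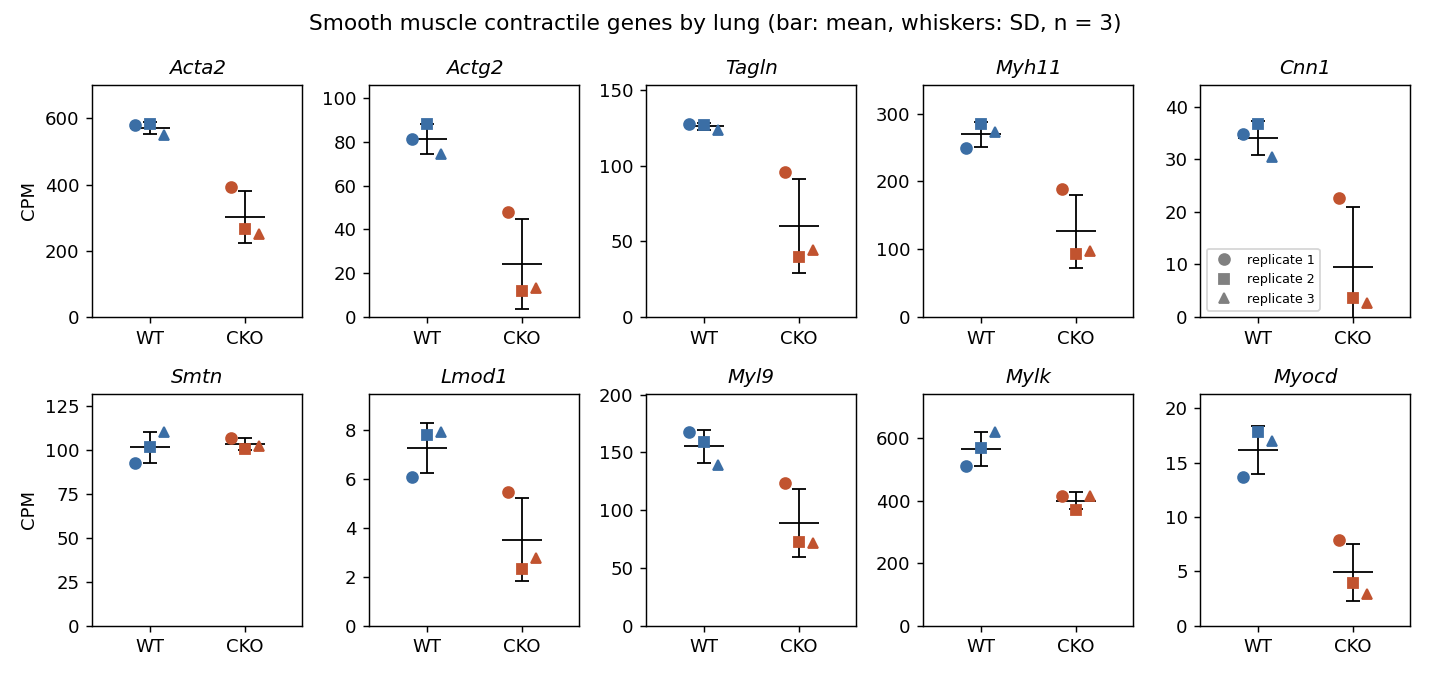
CPM of each contractile gene in each lung, WT in blue and CKO in orange; the marker shape gives the replicate, the bar the group mean and the whiskers the SD of 3 lungs (the lower whisker of Cnn1 in CKO is cut at 0). In all panels but that of Smtn the 3 CKO lungs lie below the 3 WT lungs, and CKO replicate 1 lies above CKO replicates 2 and 3 in all of these but Mylk.

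Acta2 (ENSMUSG00000035783, chromosome 19, 34241090 to 34255590, GRCm38, minus strand) encodes smooth muscle alpha-actin, the main actin of the contractile filament. It had 578.5, 584 and 549 CPM in the WT lungs (replicates 1 to 3) against 392, 267 and 249 CPM in the CKO lungs. Every CKO lung was below every WT lung, and the WT lungs lay close together. The gene fell 1.89-fold, from 571 ± 18.7 to 303 ± 77.9 CPM (log2 fold change -0.91 ± 0.16 SE, edgeR adjusted p = 0.0169).

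Promoter stretches of Acta2 and Myl9 are shown because they hold the elements through which SRF and myocardin are known to act on contractile genes, for the only members whose promoter windows held such letters. They are in the RefSeq promoter table of build GRCm38.p6, which covers 250 bases before to 50 bases after each start and holds 6 of the 10 members (Acta2, Cnn1, Lmod1, Myl9, Mylk and Smtn). Capitals mark a CArG box or a sequence that departs from it by a G or C at 1 of the 6 central bases, called CArG-like here; the element reads the same way on both strands, and the sequences are written 5′ to 3′ on the gene's strand.
Acta2, chr19:34255383-34255472, minus strand: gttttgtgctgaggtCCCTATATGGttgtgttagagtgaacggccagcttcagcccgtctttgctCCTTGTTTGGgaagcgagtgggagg
Myl9, chr2:156775288-156775389, plus strand: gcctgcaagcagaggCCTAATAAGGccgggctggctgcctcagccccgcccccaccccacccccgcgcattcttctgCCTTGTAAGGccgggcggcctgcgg
The Acta2 stretch carries 2 CArG-like sequences, which begin 84 and 34 bases before the RefSeq start. The Myl9 stretch carries a CArG box that begins 161 bases before the RefSeq start and a CArG-like sequence that begins 99 bases before it. The gene spans given here come from GENCODE M21, whose outer start of Acta2 differs, so the Acta2 stretch lies inside the span given above. A CArG box was found in 1.63% and a CArG-like sequence in 8.499% of the 32851 promoter windows in the table. The letters CAGAC, a short SMAD-binding motif, were found on either strand in 4 of the 6 windows (Acta2, Cnn1, Mylk and Smtn) and in 49.6% of all windows, and CATTCC, a motif of TEAD factors, in 4 of the 6 (Acta2, Lmod1, Mylk and Smtn) and in 14.7%. These are matches of letters in short windows, and CArG boxes outside the windows were not searched.

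Actg2 (ENSMUSG00000059430, chromosome 6, 83512905 to 83536265) encodes smooth muscle gamma-actin, the actin typical of visceral smooth muscle. Its WT lungs had 81.5, 88.5 and 74.7 CPM and its CKO lungs 48.0, 11.8 and 13.1 CPM in replicates 1 to 3. CKO replicate 1 stood between the WT lungs and the other CKO lungs. The means were 81.5 ± 6.90 and 24.3 ± 20.6 CPM (log2 fold change -1.75 ± 0.49 SE, edgeR adjusted p = 0.0663), so the difference did not pass with all lungs. The muscle and cytoplasmic actins are near-identical in sequence, and how reads that map to several of them entered the counts was not tested. Within each lung, Acta2 had 19.7, 19.99 and 20.5 counts per 100 counts of Actb, a cytoplasmic actin, in WT and 14.2, 9.97 and 9.18 in CKO lungs. Actg2 had 2.78, 3.03 and 2.78 counts per 100 of Actb in WT and 1.75, 0.439 and 0.482 in CKO lungs. Both ratios, which do not depend on library scaling, were lower in 3 of 3 CKO lungs than in any WT lung (exact two-sided permutation p = 0.1, the smallest that 3 against 3 lungs can give).

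Myh11 (ENSMUSG00000018830, chromosome 16, 14194535 to 14291372) encodes the smooth muscle myosin heavy chain, the motor that is nearly specific to this cell type. Its levels were 249.9, 285 and 273 CPM in the WT against 188, 93.6 and 96.9 CPM in the CKO lungs. The highest CKO lung, replicate 1, was below the lowest WT lung. The gene fell 2.13-fold, from 269 ± 18.0 to 126 ± 53.7 CPM (log2 fold change -1.09 ± 0.25 SE, edgeR adjusted p = 0.0359). Set against the non-muscle myosin gene Myh10, it had 30.2, 34.4 and 31.9 counts per 100 in WT and 23.8, 12.8 and 12.3 in CKO lungs.

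Myl9 (ENSMUSG00000067818, chromosome 2, 156775420 to 156781658) encodes the regulatory light chain whose phosphorylation starts contraction. It had 167, 159 and 139.5 CPM in the WT against 123, 72.5 and 72.0 CPM in the CKO lungs. The gene fell 1.74-fold, from 155 ± 14.3 CPM in WT lungs (log2 fold change -0.80 ± 0.20 SE, edgeR adjusted p = 0.0478), close to the threshold. Its near relative Myl12a, a non-muscle light chain gene, had 331, 314 and 320.0 CPM in the WT against 316, 333 and 305 CPM in the CKO lungs, and the groups overlapped.

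Mylk (ENSMUSG00000022836, chromosome 16, 34745210 to 35002420) encodes the myosin light chain kinase, in a smooth muscle form, a longer non-muscle form and a short form called telokin, all counted together here. The lungs had 511, 567 and 619 CPM in the WT against 414, 369 and 416 CPM in the CKO replicates 1 to 3. It fell 1.41-fold, from 566 ± 53.9 to 399.9 ± 26.5 CPM (log2 fold change -0.50 ± 0.09 SE, edgeR adjusted p = 0.0170). Unlike the other members with separate groups, its CKO replicate 1 lay within the range of CKO replicates 2 and 3.

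Tagln (ENSMUSG00000032085, chromosome 9, 45929619 to 45936058) encodes transgelin, also called SM22, a small actin-bundling protein and an early marker of smooth muscle. It had 128, 127 and 123 CPM in the WT against 95.6, 39.9 and 44.4 CPM in the CKO lungs. The WT lungs differed by little and CKO replicate 1 lay nearer to them than to the other CKO lungs (log2 fold change -1.07 ± 0.29 SE, edgeR adjusted p = 0.0633). Tagln shares 108 exon bases with Pcsk7 on the opposite strand, which had 9650 counts over the 6 lungs against 23308 of Tagln; with the strand setting not given in the sources used here, reads in that stretch are uncertain. Its relative Tagln2, found in many cell types, had 349 ± 13.4 CPM in the WT against 414 ± 27.8 CPM in the CKO lungs (edgeR adjusted p = 0.0639).

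Cnn1 (ENSMUSG00000001349, chromosome 9, 22099216 to 22109630) encodes calponin, which binds actin and restrains the myosin motor in mature smooth muscle. The WT lungs had 34.9, 36.8 and 30.4 CPM and the CKO lungs 22.6, 3.56 and 2.66 CPM. CKO replicates 2 and 3 had 132 and 112 counts, against 906 in CKO replicate 1. It had the log2 fold change farthest below 0 of the 10 genes and the widest error (-1.83 ± 0.69 SE, edgeR adjusted p = 0.151), so the difference did not pass. Its relative Cnn3, found in non-muscle cells too, had 457, 416 and 376 CPM in the WT against 389.6, 411.5 and 407 CPM in the CKO lungs, which overlap.

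Lmod1 (ENSMUSG00000048096, chromosome 1, 135324807 to 135368065) encodes leiomodin, which starts new actin filaments in smooth muscle. It was a gene of low level, with 6.08, 7.83 and 7.92 CPM in WT lungs and 5.45, 2.32 and 2.78 CPM in CKO lungs. The lowest WT lung and the highest CKO lung, both replicate 1, were close (log2 fold change -1.05 ± 0.30 SE, edgeR adjusted p = 0.0713).

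Smtn (ENSMUSG00000020439, chromosome 11, 3517523 to 3540612) encodes smoothelin, an actin-binding protein of contractile smooth muscle, and was the exception in the set. Its levels were 92.8, 101 and 110.0 CPM in the WT against 107, 100.3 and 102 CPM in the CKO lungs. The groups overlapped, with means of 101 ± 8.57 and 103 ± 3.42 CPM (log2 fold change 0.02 ± 0.06 SE, edgeR adjusted p = 0.862). The sign of this small difference turned with the lungs used, with log2 fold changes of -0.03 to 0.09 when 1 lung was left out.

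Myocd (ENSMUSG00000020542, chromosome 11, 65176561 to 65269989) encodes myocardin, the SRF cofactor that switches on the contractile genes. It had 13.7, 17.8 and 17.0 CPM in the WT against 7.84, 3.97 and 2.90 CPM in the CKO lungs, with no overlap. The gene fell 3.30-fold, from 16.1 ± 2.19 to 4.90 ± 2.60 CPM (log2 fold change -1.72 ± 0.32 SE, edgeR adjusted p = 0.0207), the largest fall among the 5 genes that passed.

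**Figure D2:**
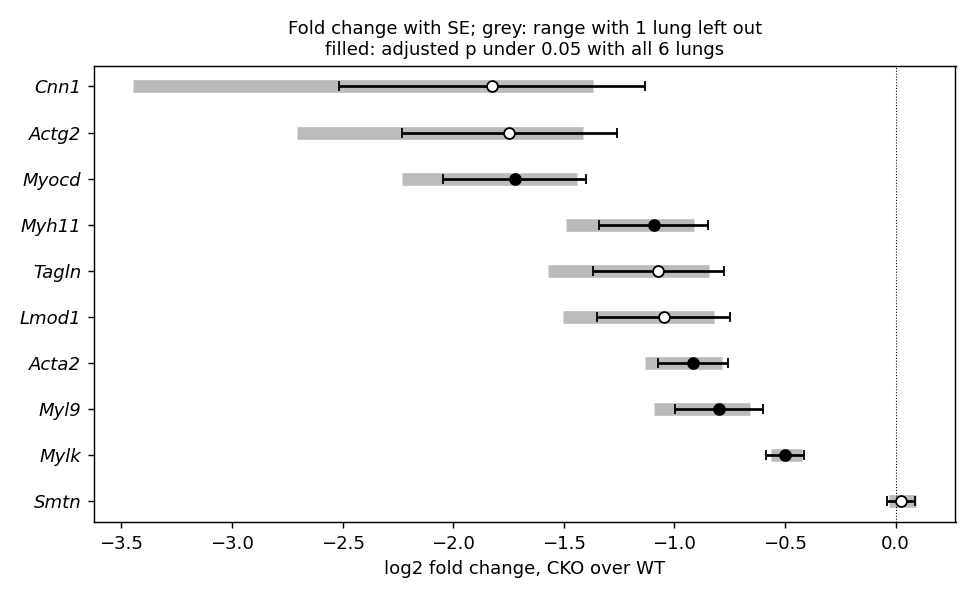
Log2 fold change of each contractile gene, CKO over WT, with its SE over 6 lungs (points and whiskers); grey bars span the values with 1 lung left out, and filled points passed at an adjusted p under 0.05. The points run from -1.83 for Cnn1 to 0.02 for Smtn, and for the genes other than Smtn no grey bar reaches 0.

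The number of calls depended on which lungs were used. Without CKO replicate 1, all genes but Smtn fell (9 of 10, where 6.51% of all genes were called lower), and their log2 fold changes reached -3.45 for Cnn1, -2.70 for Actg2 and -2.23 for Myocd. Without WT replicate 2 or CKO replicate 2, edgeR called 0 of the 10 (8 at an unadjusted p under 0.05 in either case; 0.497% and 0.493% of all genes were called lower). In these settings the median log2 fold change of the 10 genes was -1.02 without WT replicate 2 and -0.84 without CKO replicate 2, against -1.06 with all lungs. Over all genes the count called lower went from 549 to 90 in each. Leaving out WT replicate 1 kept Mylk alone (0.712% of all genes lower), CKO replicate 3 kept Acta2 and Myocd (0.867%), and WT replicate 3 kept Acta2, Mylk and Myocd (4.49%). The adjusted p with 1 lung left out reached 0.0825 for Acta2, 0.134 for Myh11, 0.175 for Myl9, 0.0853 for Mylk and 0.1001 for Myocd at its highest. Among replicates 2 and 3 alone, which leaves out the lungs with high Xist counts, the same 9 genes were called lower, where 5.81% of all genes were.

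For 8 of the 10 genes the CKO lungs differed among themselves more than the WT lungs did, with coefficients of variation of 117% against 9.63% for Cnn1 and 25.7% against 3.27% for Acta2; Mylk and Smtn were the exceptions. In CKO replicate 1 the 9 genes other than Smtn stood at 48.6% of the WT mean for Myocd to 79.4% for Myl9. In CKO replicates 2 and 3 they ran from 10.5% and 7.81% of the WT mean for Cnn1 to 65.3% and 73.6% for Mylk. Between these, Actg2 stood at 14.4% and 16.1%, Myocd at 24.6% and 17.9%, Tagln at 31.6% and 35.2%, Myh11 at 34.8% and 36.0%, and Acta2 at 46.8% and 43.7%. On the log2 scale, the shift of CKO replicate 1 from the WT mean was 17.0% of the mean shift of CKO replicates 2 and 3 for Cnn1, 28.0% for Actg2, 47.2% for Acta2 and 84.8% for Mylk. The replicate 1 lungs alone, 1 WT and 1 CKO, differed by -0.56 for Acta2, -0.76 for Actg2, -0.80 for Myocd and -0.16 for Lmod1 on the log2 CPM scale, with no replicate. CKO replicate 1 also had the Xist counts and the highest share of reads outside annotated features given above, and the part of these in its values was not tested.

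**Figure D3:**
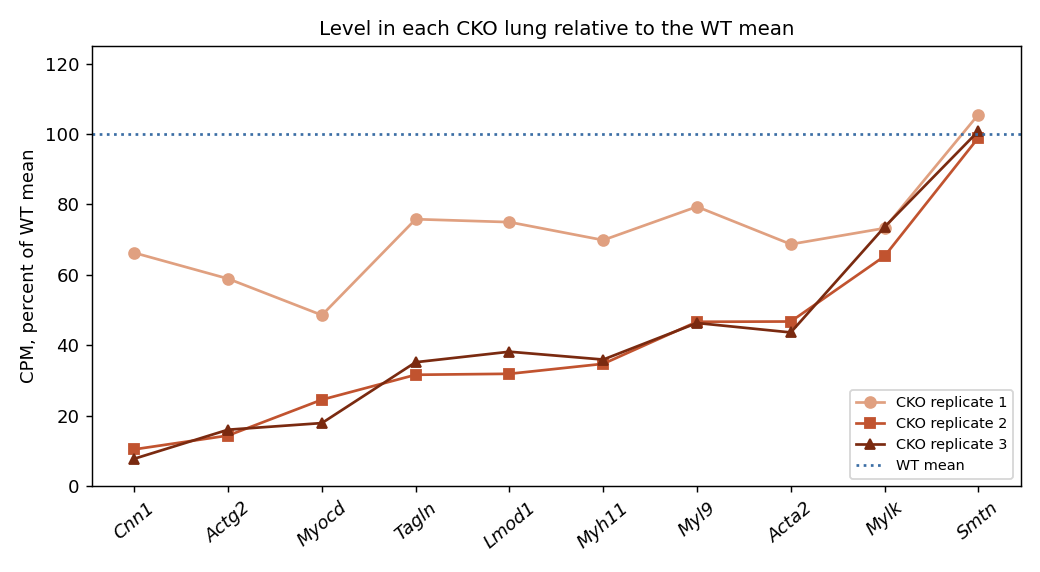
Level of each contractile gene in each CKO lung as a percentage of its WT mean (dotted line at 100), with genes ordered by CKO replicate 2. CKO replicates 2 and 3 run together from about Cnn1, at 10.5% and 7.81%, to Mylk, at 65.3% and 73.6%, while CKO replicate 1 stays between 48.6% and 79.4% for the same genes.

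Levels of different genes were compared as CPM per kilobase of merged exons, with gene lengths from GENCODE M21. In WT lungs Acta2 was highest at 259.8 ± 8.51 CPM per kilobase, followed by Myl9 at 134 ± 12.3 and Tagln at 63.4 ± 1.201. Actg2, at 52.4 ± 4.43, and Mylk, at 50.2 ± 4.79, came next with overlapping lungs. Myh11 had 35.4 ± 2.37, Smtn 23.2 ± 1.96, Cnn1 12.4 ± 1.198, Myocd 2.51 ± 0.341 and Lmod1 1.84 ± 0.262 CPM per kilobase, and the ranges of the last pair do not overlap. In CKO lungs the order of the means changed, with Mylk at rank 3 at 35.5 ± 2.35, Smtn at rank 5 at 23.6 ± 0.781 and Actg2 at rank 7 at 15.6 ± 13.2 CPM per kilobase, a spread within which Actg2 and Myh11 overlap. By the RPKM that the authors deposited the order turns in places: Tagln, at 79.1, stands above Myl9, at 63.1, and Lmod1, at 1.85, above Myocd, at 0.933. These RPKM place Actg2 at rank 6 of 10 in WT lungs at 14.9, with a gene length of 5522 bases, where the merged exons of Actg2 come to 1557 bases and its longest coding transcript to 1333 bases. For Smtn the deposited length is 20543 bases against 4380 in merged exons, and its deposited RPKM in WT lungs was 4.93. Comparisons between groups of the same gene do not depend on this length.

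**Figure D4:**
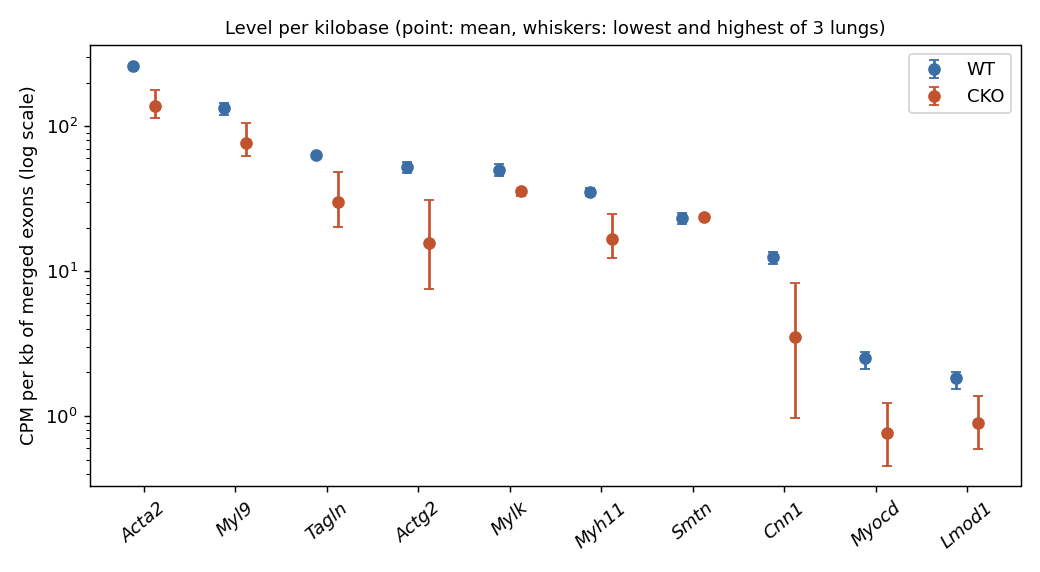
Level per kilobase of merged exons on a log axis, WT in blue and CKO in orange, as the mean with the lowest and highest of 3 lungs. Acta2 is at the top of both groups, at 259.8 and 138 CPM per kilobase, and Smtn is the gene whose groups lie at the same height.

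The authors' deposited table of their own edgeR comparison lists log2 fold changes of -0.92 for Acta2, -1.73 for Myocd, -1.85 for Actg2, -1.98 for Cnn1 and 0.02 for Smtn. In the authors' deposited table the adjusted p is 5.975e-05 for Acta2, 0.0005753 for Actg2, 0.0006031 for Lmod1, 0.00195 for Tagln, 0.0138 for Cnn1 and 0.964 for Smtn. All members but Smtn are under 0.05 there, among them Actg2, Tagln, Cnn1 and Lmod1, which did not pass in the test used here. The reason for this difference was not tested.

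The wider contractile apparatus, 25 genes of actin-linked, Z-disc-like and filament proteins, went both ways. Of these, 7 fell, 3 rose and 15 did not pass, with a median log2 fold change of -0.25. Over all tested genes 3.08% fell and 5.64% rose. Pdlim7, a cytoskeletal adaptor gene, fell 1.36-fold from 81.9 ± 1.52 CPM (edgeR adjusted p = 0.00581), and Actn1, which encodes the crosslinker alpha-actinin, fell 1.503-fold from 289.9 ± 3.04 to 193 ± 24.4 CPM (edgeR adjusted p = 0.00878). The others that fell, named after their values were seen, were Csrp1 (1.30-fold), Nexn (1.21-fold), the tropomyosin genes Tpm1 (1.24-fold) and Tpm2 (1.39-fold), and Pdlim3 (2.28-fold). Ppp1r14a, whose product inhibits myosin phosphatase, rose 1.66-fold to 85.4 ± 8.66 CPM (edgeR adjusted p = 0.00446), and Itga8, an integrin gene, rose 1.49-fold to 194 ± 20.3 CPM (edgeR adjusted p = 0.00782). Desmin, a muscle intermediate filament protein, is encoded by Des, which rose 1.26-fold and is named after its value was seen. Leaving out WT replicate 1 left 3 genes that fell, WT replicate 2 left 1, and CKO replicates 1, 2 and 3, each in turn, left 11, 1 and 2. The share of all genes called lower in each of these settings, given above, moved in the same direction.

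Among 21 genes of calcium handling, receptors and relaxation, 5 fell, 2 rose and 14 did not pass, with a median log2 fold change of -0.09. Of all tested genes 3.08% fell and 5.64% rose. Both endothelin receptor genes fell, Ednra 1.54-fold from 310.4 ± 11.3 to 202 ± 22.6 CPM (edgeR adjusted p = 0.00640) and Ednrb 1.41-fold from 190.0 ± 2.69 to 135 ± 2.34 CPM (edgeR adjusted p = 0.00120); endothelin is a constrictor of smooth muscle. Itpr1, Kcnma1 and Cacna1h, which encode a calcium release channel, a potassium channel and a calcium channel, also fell and are named after their values were seen. Of the genes that act on cyclic GMP, a relaxing messenger, 2 were called higher. Pde5a, whose enzyme breaks down cyclic GMP, rose 1.26-fold to 539 ± 32.8 CPM, and Gucy1b3, a subunit of the cyclase that makes it, rose 1.28-fold to 159 ± 16.1 CPM (edgeR adjusted p = 0.0221 and 0.0246). Gucy1a3, the partner subunit of that cyclase, had 286 ± 9.95 CPM in WT lungs and 286 ± 18.1 CPM in the CKO group (edgeR adjusted p = 0.989). Prkg1, the kinase gene that cyclic GMP acts on, and Mrvi1, which encodes a substrate of that kinase, were not called either (edgeR adjusted p = 0.258 and 0.537); these 3 genes were named after their values were seen. None of the list rose in edgeR's test when CKO replicate 2 or any 1 of WT replicates 1 and 2 was left out (2 genes, Pde5a and Gucy1b3, with all lungs), 1 rose when CKO replicate 3 was, and 2 fell in each of these 4 settings. Over all genes 162 to 325 rose and 90 to 157 fell in these 4 settings, against 1006 and 549 with all lungs. Cacna1h, with an adjusted p of 0.0449 in edgeR's test of all lungs, did not pass in those 4 settings, in the run of 18 February alone (0.0646) or with the share of reads outside features as a covariate.

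Among 16 transcriptional regulators of the contractile program, with Myocd counted among the members, 2 rose and 0 fell in edgeR's test (1 lower at an unadjusted p under 0.05; DESeq2 and limma-voom called 0 lower), and the median log2 fold change was 0.05. The shares of all tested genes were 5.64% higher and 3.08% lower, so counts this small in a list of 16 say little about the list. Klf4, which represses contractile genes in vascular smooth muscle, rose 1.599-fold from 17.5 ± 3.17 to 28.1 ± 3.80 CPM (edgeR adjusted p = 0.0312), and Mef2c rose 1.17-fold (edgeR adjusted p = 0.0306). The count that rose was 4 without WT replicate 3 or CKO replicate 1 and 0 without any 1 of the other lungs. Over all genes 1246 rose without WT replicate 3, 1713 without CKO replicate 1 and 162 to 325 without any 1 of the others. Klf5, a relative of Klf4, and Tead4, a TEAD factor gene, had 11.7 ± 2.72 and 14.2 ± 2.0 CPM in the WT against 17.3 ± 2.41 and 18.4 ± 1.82 CPM in the CKO lungs (edgeR adjusted p = 0.0868 and 0.0993). Srf had 114, 111 and 109.8 CPM in the WT against 104, 105 and 104 CPM in the CKO lungs (log2 fold change -0.10 ± 0.04 SE, edgeR adjusted p = 0.151). The other SRF cofactors, the myocardin-related factors listed as Mkl1 and Mkl2, had overlapping groups (log2 fold changes 0.12 and 0.13). In edgeR's test Myocd was called lower and Srf, Mkl1 and Mkl2 were not called; the difference between their fold changes was not tested.

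Of the 19 paralogs outside smooth muscle, 16 were tested and 0 passed in edgeR's test (2 lower and 2 higher at an unadjusted p under 0.05). DESeq2 called 2 of them higher and none lower, and limma-voom called 1 in each direction. Their median log2 fold change was -0.0048. Actc1, the cardiac actin gene, which is also made in developing smooth muscle, had 47.5, 45.3 and 48.7 CPM in the WT against 32.7, 9.61 and 15.03 CPM in the CKO lungs (log2 fold change -1.30 ± 0.37 SE, edgeR adjusted p = 0.0707). Actg1, which encodes the other cytoplasmic actin, and Myl12b had log2 fold changes of -0.12 and 0.20 (edgeR adjusted p = 0.187 and 0.0784). Ratios were taken of Myh11 to Myh10, Tagln to Tagln2, Cnn1 to Cnn3 and Myl9 to Myl12a. By group means of log2 ratios, they were 2.07-fold, 2.70-fold, 5.51-fold and 1.77-fold lower in CKO lungs, in that order. Each was lower in 3 of 3 CKO lungs than in any WT lung (exact two-sided permutation p = 0.1). CKO replicate 1 lay nearest to the WT lungs in each. Cnn1 had 7.65, 8.86 and 8.09 counts per 100 of Cnn3 in WT and 5.79, 0.866 and 0.654 in CKO replicates 1 to 3. Tagln had 37.4, 37.3 and 33.8 per 100 of Tagln2 in WT and 24.97, 9.46 and 10.2 in CKO lungs. Myl9 had 50.6, 50.7 and 43.6 per 100 of Myl12a in WT and 39.01, 21.8 and 23.6 in CKO lungs.

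Of 22 genes of the signals that pattern airway smooth muscle and of the TGF-beta pathway, 3 rose, 4 fell and 15 did not pass, with a median log2 fold change of 0.01. Over all tested genes 5.64% rose and 3.08% fell. Ptch1, a Hedgehog receptor gene, rose 1.45-fold to a mean of 492 ± 58.0 CPM (edgeR adjusted p = 0.0142), and Bmp4, named after its value was seen, rose 1.96-fold. The activity of the Hedgehog pathway was not tested. Wnt2, a mesenchymal WNT ligand gene, fell 1.51-fold from 94.1 ± 5.84 CPM (edgeR adjusted p = 0.00386) and Smad3, a TGF-beta signal transducer, fell 1.22-fold (edgeR adjusted p = 0.0157). Hhip and Tgfb3 also fell, by 1.08 and 0.58 on the log2 scale, and are named after their values were seen. When CKO replicate 2 or any 1 of WT replicates 1 and 2 was left out, 1 gene of the list rose and 1 fell, and 5 rose and 6 fell when CKO replicate 1 was. Of all genes 162 to 264 rose and 90 to 130 fell in the former settings, and 1713 rose and 1185 fell without CKO replicate 1.

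**Figure D5:**
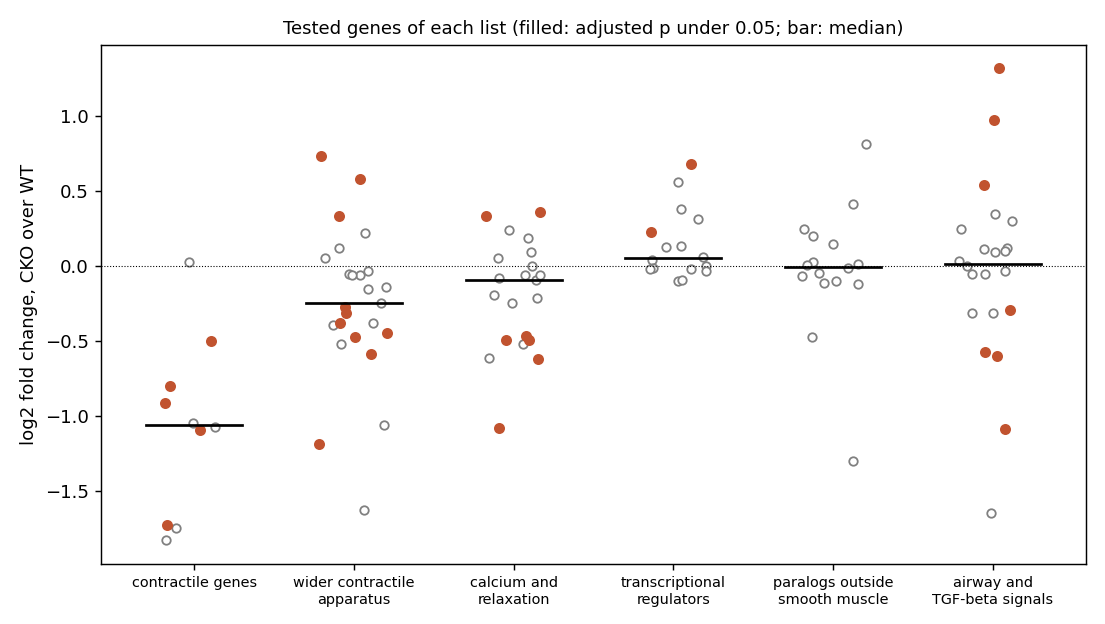
Log2 fold change, CKO over WT, of the tested genes of each list, with filled points for genes that passed at an adjusted p under 0.05 and a bar at the median. The contractile genes have a median of -1.06, while the medians of the other lists lie between -0.25 and 0.05; the lists were chosen with earlier results known and the difference between lists was not tested.

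Markers of other cell types were read in the same lungs, where 5.64% of all tested genes were called higher and 3.08% lower. Among 6 pericyte markers 0 passed in edgeR's test (2 higher at an unadjusted p under 0.05; DESeq2 called 1 higher and limma-voom none), and their summed level was 489 to 580.3 CPM in WT and 565.5 to 591.5 CPM in CKO lungs. Of the 6 cardiac markers tested, 0 passed in edgeR's test (Actc1 alone was lower at an unadjusted p under 0.05; limma-voom called 1 lower and DESeq2 none). Their summed level was 84.6 to 112 CPM in WT and 34.9 to 87.1 CPM in CKO lungs, lowest in CKO replicate 2, with Nppa at 0 in 3 of the lungs. In WT lungs Actc1, described above as also made in developing smooth muscle, was the largest part of this sum. The groups of the other tested cardiac markers overlapped, with log2 fold changes of -0.02 for Myh6 and -0.38 for Tnnt2. Skeletal muscle markers summed to 10.3 to 14.6 CPM in WT and 14.4 to 18.1 CPM in CKO lungs, with the muscle regulators Myod1, Myf5 and Myog at or below 0.117 CPM in every lung and Pax7 the 1 marker called, higher in CKO lungs. Summed endothelial markers were 1195 to 1310 CPM in WT and 1445 to 1643 CPM in CKO lungs, red blood cell markers 1192 to 1659 and 2045 to 2925 CPM, and immune markers 98.9 to 101 and 117 to 198 CPM, with 4 of 6, 4 of 6 and 3 of 5 genes called higher. Epithelial markers summed to 1773 to 2361 CPM in WT and 1296 to 1665 CPM in CKO lungs, with 2 of 6 called lower (Epcam and Krt18). Sftpc, the largest part of the epithelial sum in every lung, was not called (edgeR adjusted p = 0.125). Nkx2-1 alone of these markers had a log2 fold change above 0 (0.16, edgeR adjusted p = 0.320). The sum thus does not show a fall shared by all epithelial markers. Fibroblast markers summed to 4493 to 4931 and 5478 to 6341 CPM, with 2 of 6 called higher and 1 lower. Most of this sum was Col3a1 and Col1a1, neither of which was called (edgeR adjusted p = 0.0965 and 0.127). Mesothelial markers summed to 71.0 to 77.8 and 102 to 116 CPM, with 1 of 4 called higher. Nerve and glia markers summed to 9.97 to 13.9 and 11.99 to 13.5 CPM, and 0 of 5 passed in any of the 3 tools or at an unadjusted p under 0.05 in edgeR. The part of these cell types in the contractile genes and in the genes of the other lists, Klf4 and Mef2c among them, was not tested.

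The genes outside the set whose 6 values ran closest to Acta2 were looked for among the 10460 genes that averaged 10 CPM or more. Likeness was the root mean square difference, over 6 lungs, of log2 CPM taken as deviations from each gene's WT mean. The 5 nearest genes were Bcl11a, a transcription factor gene, at 0.0569, Cfi, a complement regulator gene, at 0.0625, Adam12, a metalloprotease gene, at 0.0689, Lhfpl2 at 0.0716 and Bmpr1b, a BMP receptor gene, at 0.0834. Adam12 had 166, 165 and 161.5 CPM in the WT against 100.9, 75.6 and 71.2 CPM in the CKO lungs. Among the members, Myl9 was nearest to Acta2, at 0.108 (rank 10 of these genes), followed by Myh11 at 0.218 (rank 55) and Tagln at 0.269 (rank 98). Mylk was at 0.383 (rank 208) and Myocd at 0.684 (rank 4803). The measure grows with any difference in the size of a shift, so a gene that fell further than Acta2 is counted as far. Smtn, which did not change, was thus nearer, at 0.716 (rank 6210), than Actg2, at 0.914 (rank 9548). Cnn1 was farthest of those with 10 CPM, at 1.34 (rank 10337).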

How the data were processed

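Whole-lung RNA-seq of 3 WT and 3 CKO lungs was used. Per the submitters' processing notes, the authors used cutadapt 1.13, Trimmomatic 0.35, STAR 2.5.2b on GRCm38, HTSeq 0.6.1p2 and edgeR 3.16.5. Per the file headers, genes were those of GENCODE M8. The deposited table holds raw counts for each run, and RPKM made by the authors with a gene length they also deposited. A further deposited table gives the authors' log2 fold change and p-value per gene, and its 24 columns of per-sample values were not used. An alignment table gives deposited read counts, from which shares of reads outside features were taken. The 2 runs of a lung were summed, since runs of 1 lung differed with a chi-square per degree of freedom of 1.42 to 1.502 and lungs of a group with 8.46 to 45.6. The 92 spike-ins were left out.

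Counts were tested with edgeR 4.0.16 in R 4.3.3 (the quasi-likelihood F test after TMM scaling; genes kept by filterByExpr, minimum count 10), with group as the single factor; the SE is the log2 fold change divided by the root of F. DESeq2 1.42.0 and limma 3.58.1 were alternatives. Gene positions and exon lengths come from GENCODE M21 on the same assembly (98.8% of genes matched). The members and lists were chosen with earlier results of these data known. Named genes are the members, Tgfbr2, up to 4 genes of each list with the smallest p, the paralogs in ratios and the 5 nearest to Acta2; others, Srf, Mkl1, Mkl2 and single marker genes among them, were named after their values were seen. A gene of the signal list is not reported here. The CArG-like search was chosen after the CArG box search. Protein sequences were not used here. Depth was 31983717 to 51572845 counts per lung, so precision rests on the spread between lungs.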

Additional observations from a re-analysis of the deposited data

How the results depend on the processing

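With all 6 lungs, 5 contractile genes fell and 0 rose. The log2 fold changes of the 9 genes other than Smtn were below 0 in all 17 alternatives, while Smtn was below 0 in 2 of them. The genes that fell numbered 9 with limma-voom, without a filter on low counts, with a covariate (replicate 1 against the others, or the share of reads outside features), and in replicates 2 and 3 only; DESeq2 gave 6, and 1 lung left out gave 0 to 9. With total count scaling Myl9 did not pass (adjusted p = 0.0501). Over all genes, 1006 were higher and 549 lower. DESeq2 gave 984 lower, limma-voom 628, no filter 884 and replicates 2 and 3 only 1051. The replicate 1 covariate gave 778 lower, and the share of reads outside features as a covariate 477. Fits with 1 lung left out gave 162 to 1713 higher and 90 to 1185 lower. For the lists, genes of the wider apparatus that fell numbered 11, against 7, with no filter or with replicates 2 and 3 only, and 1 to 11 with 1 lung left out. Regulators that rose numbered 2 with all lungs, 4 with DESeq2, 0 with the run of 17 February alone and 1 with the share of reads outside features as a covariate or with replicates 2 and 3 only. Airway and TGF-beta signals that rose numbered 5, against 3, with DESeq2, no filter or the replicate 1 covariate and 6 with replicates 2 and 3 only. With 1 lung left out, 1 to 5 of them rose and 1 to 6 fell, and of the calcium and relaxation genes 0 to 2 rose and 2 to 7 fell. The causes of these differences were not tested. The labels give no pairing of the lungs beyond the replicate number, although the replicate 1 lungs also share the high Xist and low Y-linked counts. Correlations of deviations from the group mean were 0.102, 0.0887 and 0.0365 for the same numbers, and 5 of 6 lungs correlated best with their own number. With the replicate block, 7 contractile genes fell (Actg2 and Tagln passed), and 1087 genes were higher and 693 lower. The ratios to paralogs were below 0 on the log2 CKO minus WT scale in each single run, a setting chosen for them after seeing the data. With 1 lung left out they could not change sign, since the groups do not overlap.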

Other observations

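Several genes of the lists that did not pass with all lungs were, like Cnn1 and Actg2, highest among the CKO lungs in replicate 1; they are named after their values were seen. Synpo2, which encodes an actin-bundling protein of muscle, had 35.5, 41.3 and 44.2 CPM in WT and 25.6, 7.29 and 6.34 CPM in CKO replicates 1 to 3 (log2 fold change -1.63 ± 0.48 SE, edgeR adjusted p = 0.0759). Fhl2, which encodes a LIM-domain cofactor, had 16.2, 15.6 and 15.2 CPM in WT and 11.6, 5.53 and 5.44 CPM in CKO lungs (edgeR adjusted p = 0.0540). Csrp2, a LIM-domain gene of smooth muscle, had 78.0, 77.8 and 73.8 CPM in WT and 69.4, 48.7 and 42.1 CPM in CKO lungs (edgeR adjusted p = 0.0896).

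Lgr6, a receptor gene used as a marker of airway smooth muscle precursors, had 25.8, 31.9 and 38.9 CPM in WT replicates 1 to 3. CKO replicate 1, at 26.4 CPM, lay within the WT range, while CKO replicates 2 and 3 had 2.32 and 2.19 CPM. The groups overlapped through that 1 lung (log2 fold change -1.65 ± 0.83 SE, edgeR adjusted p = 0.264).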
